A study of Mus musculus with 6 samples.

Results

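The genes described here encode the machinery of mitosis: the kinases and cyclins that start it, the centromere and kinetochore proteins, the kinesin motors, the spindle proteins and the factors that divide the cell. They are 42 named genes of the G2 and M phases of the cell cycle, chosen by symbol from a list. The set and the other gene lists below were chosen with earlier results of these data known. All 42 passed the filter on low counts, out of 46517 gene identifiers in the tables and 12407 genes tested. Naive T cells were purified from spleen and lymph nodes of C57BL/6J mice and activated for 3 days on plates coated with antibody to CD3 at 5 µg/mL, with antibody to CD28 at 0.5 µg/mL and IL-2 at 100 units/mL. Both groups of CD8 T cells received culture supernatant of basophils from day 1 to day 2. The sorted basophils, which are rare granulocytes of the blood, had spent 2 days in culture with IL-2 at 100 units/mL, with IL-3 at 3 ng/mL in 1 group and PBS in the other. There were 3 libraries for each supernatant, named below as PBS supernatant and IL-3 supernatant replicates 1, 2 and 3. The design has no group without supernatant and none with IL-3 added without basophils, so what the basophils released and what was carried over from their medium cannot be told apart. The labels name the replicates by number only, and do not tie them to separate mice or cultures, so the tests below measure the spread between libraries, which may be technical. In RNA from a whole culture, fewer cells in mitosis and less transcript in each such cell cannot be told apart.

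In a dividing cell the transcripts of these genes accumulate from S phase to M phase and fall again as the cell leaves mitosis, and a T cell that leaves quiescence after antigen receptor stimulation starts to make them. Cyclin B with CDK1 starts mitosis, the Aurora and Polo-like kinases build the spindle and correct its attachments, kinetochores tie chromosomes to microtubules, and kinesins move and sort both. The spindle checkpoint holds back the anaphase-promoting complex until every chromosome is attached, after which sister chromatids separate and the cell divides.

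Total expected counts ranged from 17377052 to 22174902 per library, so that 3 counts, the upper limit a count of 0 allows, correspond to 0.135 to 0.173 CPM, for counting error only; the 42 genes had 310 to 24000 counts in a library. Log2 CPM correlated at 0.981 to 0.989 within groups and 0.954 to 0.961 between them. Of the 6 libraries PBS supernatant replicate 2 stood apart on the second principal component (14.7% of variance), and the gene CT010467.1 took 4.51% of its counts against 0.433 to 2.2% in the others. The CD8 identity was checked on 7 T cell markers, all detected, whose summed CPM were 1991 to 2142 with PBS and 1247 to 1367 with IL-3 supernatant, with 6 lower and Cd247 higher. Basophil and mast cell markers summed to 2.55 to 3.56 and 0.715 to 1.8 CPM, with Mcpt8, Prss34, Fcer1a and Ms4a2 at 0 in all 6 libraries. The difference lay in Kit, with means of 2.76 CPM with PBS and 0.612 with IL-3 supernatant. Hdc, below the filter, had 0.299 and 0.471. Markers of CD4 T cells (3 genes) summed to 6.44 to 9.29 and 17.9 to 19.8 CPM, mostly Zbtb7b, of B cells (6 genes) to 3.06 to 4.1 and 7.1 to 8.96, of NK cells (3 genes) to 38.0 to 44.4 and 10.9 to 12.4, nearly all Eomes, and of myeloid cells (8 genes) to 1.61 to 2.57 and 1.35 to 2.55. The part of these marker differences in the values of the mitotic genes was not tested.

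Transcripts of the mitotic machinery were somewhat less abundant after IL-3 basophil supernatant, by small amounts and not in every gene. Of the 42 genes 19 (45.2%) were lower, 1 (2.38%) was higher and 22 did not pass, with edgeR's quasi-likelihood test and Benjamini-Hochberg adjustment over all genes tested. Of all 12407 genes tested, 16.1% were lower and 14.8% higher by the same call, 30.9% in either direction. Because the 42 were chosen with earlier results known, the difference between these shares is a description and carries no test. Among the 7009 genes within the range of average expression that the 42 span (average log2 CPM of 4.21 to 10.21, CPM being counts scaled to library size), 19.5% were lower and 15.0% higher. The median log2 fold change, IL-3 minus PBS supernatant, was -0.14 over the 42 genes (-9.14%), against 0.00 over all genes tested and -0.01 in that range of expression. The 19 lower genes spanned log2 -0.50 to -0.16, that is 10.7 to 29.4% lower, with a median of -0.30, and none changed 2-fold. The sizes were small beside those of called genes at large, since the median absolute log2 change was 0.30 over the 20 called here and 0.49 over all 3835 called genes. Those 3835 were not limited to that range of expression, and genes with low counts need a larger change to be called. Of the 22 that did not pass, 20 had a negative log2 fold change and 5 had an unadjusted p below 0.05. Without PBS supernatant replicate 2, the library that stood apart, 15 of the 42 were lower and 1, Aurka, was higher, beside 13.0% and 13.2% of all genes tested, 26.1% in either direction, and the median was -0.16; over leaving out each library in turn 15 to 23 were lower. Tested with limma on log2 TPM (pseudocount 1) of the 5 libraries with TPM per gene, Plk1, Cdca8, Cenpf, Kif22, Prc1 and Hmmr lost their calls. On TPM of 6 libraries Bub1, Cdca8, Cenpf, Prc1 and Hmmr did, and on TPM of 5 libraries without a filter Ccna2, Bub1, Bub1b, Aurkb, Birc5 and Kif4 did besides the first 6.

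The libraries of the 2 groups separated when the set was read as a whole. The summed CPM of the 42 genes were 7486, 7622 and 7762 in PBS supernatant replicates 1, 2 and 3 and 6625, 6613 and 6670 in IL-3 supernatant replicates 1, 2 and 3. All 3 IL-3 sums lay below all 3 PBS sums, at 6636 ± 30.2 against 7623 ± 138 (SD, n = 3 each), a difference of -12.9%. Mki67 and Top2a are by far the most abundant of the set in CPM, and without them the sums were 4659 ± 21.6 against 5272 ± 89.0, a difference of -11.6%. In 24 genes every IL-3 library lay below every PBS library, and in 1 gene, Hmmr, above, where 22.6% and 21.0% of all genes tested separated in those directions, 43.6% in either. An IL-3 library was the lowest of the 6 in 13, 12 and 10 genes for replicates 1, 2 and 3, and a PBS library in 5, 1 and 1.

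**Figure D1:**
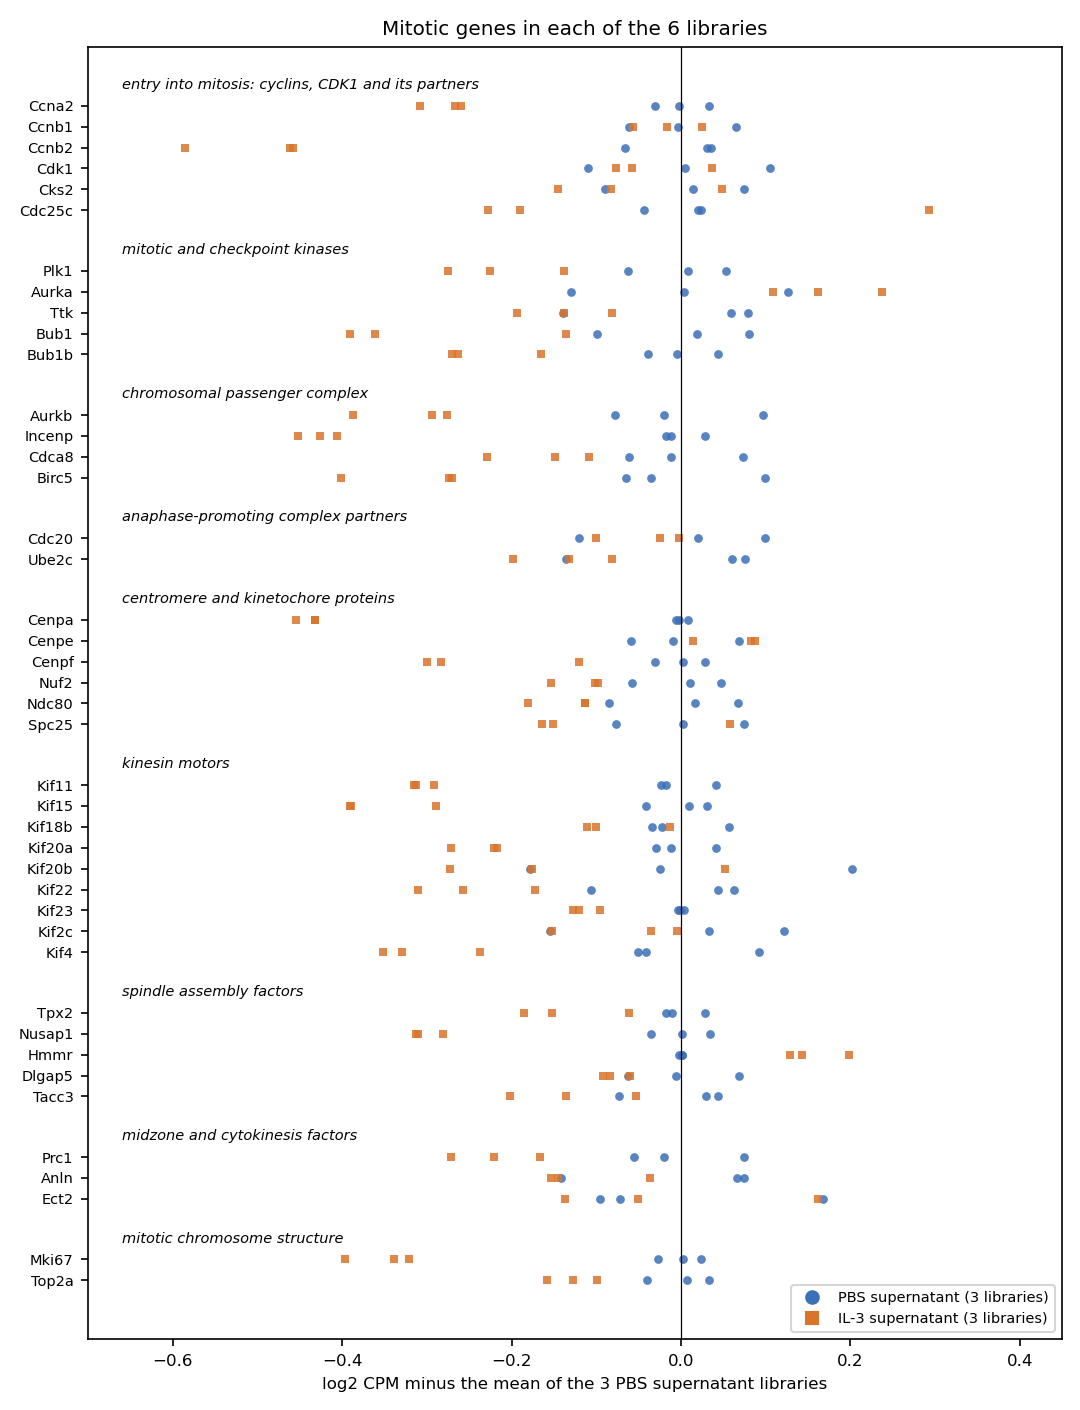
Each row is a gene and each point a library: log2 CPM minus the mean of the 3 PBS supernatant libraries, with blue circles for PBS and orange squares for IL-3 supernatant. Most orange squares lie to the left of 0, farthest for Ccnb2, while those of Hmmr, Aurka and Cenpe lie to the right. Of these, only the squares of Hmmr lie beyond all circles, and those of Ccnb1, Cdc25c and Ect2 mix with the circles.

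**Figure D2:**
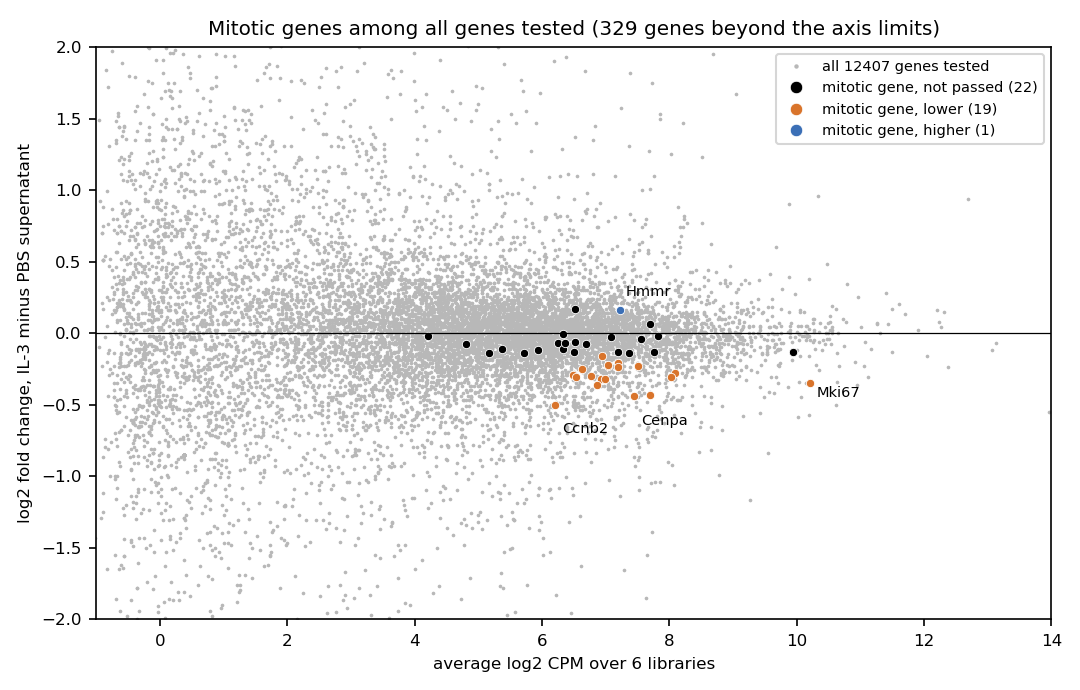
Log2 fold change (IL-3 minus PBS supernatant) against average log2 CPM for all 12407 genes tested in grey and for the 42 mitotic genes in black (did not pass, 22), orange (lower, 19) and blue (higher, 1). The mitotic genes sit at middle to high expression, mostly below the line at 0 and none beyond a change of 2-fold.

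The levels of these genes were compared with each other per length, in TPM (transcript abundance scaled for length and library) over the 5 libraries with a TPM table per gene. The median TPM of a gene over those libraries had a median of 83.4 over the set. Top2a was the most abundant at 419.8 TPM (392 to 466 over the libraries), followed by Ube2c at 323 (304 to 364), and the ranges of these 2 genes did not overlap. Next came Cks2 at 264 (236 to 279) and Cdk1 at 234 (226 to 241), whose ranges overlapped. The least abundant were Anln at 14.0, Cdc25c at 18.9, Cenpf at 23.2 and Ttk at 25.0 TPM. Mki67, which leads in CPM, stood at 206 TPM, close to Ccnb1 at 215 and Cenpa at 203 TPM.

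Promoters of the set are shown because the genes were lower together in part and because promoters of late cell cycle genes are known for a pair of short motifs. The cell cycle genes homology region (CHR) is known to bind MuvB complexes, which repress these genes in quiescence and activate them in G2, and CCAAT is bound by NF-Y. A RefSeq promoter window of build GRCm38.p6 was matched for 35 of the 42 genes. In the 250 bases before the start, CHR was searched as TTTGAA or TTCGAA and CCAAT as CCAAT, each on both strands and counted separately, also where matches share bases. At least 1 CHR match was held by 13 of the 35 promoters (37.1%), against 19.6% of 27025 genes with a window and 14.8% of 9155 of them that were tested. CCAAT was held by 26 (74.3%), against 37.5% and 40.9%, and 2 or more CCAAT matches by 20 (57.1%), against 11.5% and 15.8%. Both motifs stood in 11 promoters (31.4%), against 7% and 5.93%. Of the 15 lower genes with a window, 7 (46.7%) held CHR, 12 (80%) CCAAT, 8 (53.3%) 2 or more CCAAT and 6 (40%) both motifs. Of the 19 that did not pass, the numbers were 6 (31.6%), 13 (68.4%), 11 (57.9%) and 5 (26.3%). These are few genes, and the difference between the shares was not tested. A match is only these letters in this window and does not show a bound site.

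The 150 bases before the start of 7 of these genes follow, 5′ to 3′ on the strand of the gene, with CHR and CCAAT matches of either strand in capitals. Ccnb2, Mki67, Kif11 and Cenpf are shown as lower genes, Hmmr as the higher gene, and Aurka and Top2a as genes that did not pass. In GRCm38.p6 the Ccnb2 stretch is chr9:70421555-70421704, Mki67 chr7:135716380-135716529, Kif11 chr19:37376232-37376381, Cenpf chr1:189688087-189688236, Hmmr chr11:40733438-40733587, Aurka chr2:172370571-172370720 and Top2a chr11:99024190-99024339. Kif11 lies on the plus strand and the others on the minus strand.
Ccnb2: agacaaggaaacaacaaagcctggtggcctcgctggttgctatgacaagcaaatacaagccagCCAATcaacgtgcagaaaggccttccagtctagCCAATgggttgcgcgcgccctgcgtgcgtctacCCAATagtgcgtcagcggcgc
Mki67: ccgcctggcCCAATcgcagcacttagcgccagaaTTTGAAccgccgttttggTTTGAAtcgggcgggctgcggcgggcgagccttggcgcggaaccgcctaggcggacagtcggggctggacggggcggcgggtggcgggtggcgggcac
Kif11: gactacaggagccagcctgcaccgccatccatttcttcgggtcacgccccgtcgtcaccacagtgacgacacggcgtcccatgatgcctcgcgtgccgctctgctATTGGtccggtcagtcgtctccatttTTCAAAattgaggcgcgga
Cenpf: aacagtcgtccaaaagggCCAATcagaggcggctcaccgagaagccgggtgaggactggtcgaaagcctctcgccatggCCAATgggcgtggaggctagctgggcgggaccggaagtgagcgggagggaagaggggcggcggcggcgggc
Hmmr: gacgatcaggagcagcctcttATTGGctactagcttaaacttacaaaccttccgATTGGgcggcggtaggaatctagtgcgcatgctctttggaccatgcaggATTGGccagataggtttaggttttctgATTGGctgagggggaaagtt
Aurka: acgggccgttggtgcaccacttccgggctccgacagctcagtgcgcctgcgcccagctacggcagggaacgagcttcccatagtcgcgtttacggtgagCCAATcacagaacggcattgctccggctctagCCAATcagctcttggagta
Top2a: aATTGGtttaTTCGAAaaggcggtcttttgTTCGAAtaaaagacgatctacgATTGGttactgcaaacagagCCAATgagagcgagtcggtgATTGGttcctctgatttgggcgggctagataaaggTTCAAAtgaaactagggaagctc
The stretch before Hmmr, the gene that was higher, holds 4 CCAAT matches and that of Top2a 4 CCAAT and 3 CHR matches, while Ccnb2 has 3 CCAAT matches here and Kif11 1 of each motif. Hmmr has no CHR match in its 250 bases, and neither have Cenpf, which was lower, and Aurka, which did not pass. Ccnb2 has 1 CHR match in its 250 bases, outside the stretch shown.

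Among the 6 genes of entry into mitosis, 2 were lower, Ccnb2 and Ccna2, and 4 did not pass. Ccnb2 (ENSMUSG00000032218, chr9:70407692-70421547, minus strand) encodes cyclin B2, a partner of CDK1, and had the most negative log2 fold change of the set. Its CPM were 82.7, 88.8 and 88.5 in PBS supernatant replicates 1, 2 and 3 and 63.0, 57.7 and 62.9 in IL-3 supernatant replicates 1, 2 and 3. All IL-3 libraries were low and close to each other, without overlap with PBS. Ccnb2 fell from 86.7 ± 3.42 to 61.2 ± 3.05 CPM (SD, n = 3), that is by 0.50 in log2 units (SE 0.06, edgeR adjusted p = 1.1e-05). A copy listed as Ccnb2-ps held 12 to 33 counts per library, at most 2.58% of those of Ccnb2. Ccna2 (ENSMUSG00000027715, chr3:36564865-36572150, minus strand) encodes cyclin A2, which acts in S phase and early mitosis. Its CPM were 305, 297.5 and 292 with PBS and 241, 249 and 248 with IL-3 supernatant, again 3 low and 3 high libraries. That was a fall of 0.28 on the log2 scale (SE 0.05, edgeR adjusted p = 0.00035). Ccna2 overlaps Exosc9 on the other strand, and without a stated strand setting reads of the 2 genes cannot be told apart. The same holds for Nusap1 with Oip5, Prc1 with Rccd1, Kif4 with Pdzd11, Tacc3 with Tmem129 and Cdca8 with 9930104L06Rik, and in the other lists for Numa1 with Il18bp, Ncaph2 with Sco2 and Tymp, Anapc13 with Cep63, Tubb4b with Fam166a, Tuba4a with Stk16, Mcm7 with Ap4m1 and Cops6, Orc2 with Nif3l1, and Rb1 with Lpar6 and Rcbtb2.

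Ccnb1, which encodes the other main mitotic cyclin, did not pass. Its CPM were 218, 227 and 238 with PBS and 231, 219 and 225 with IL-3 supernatant, which overlapped throughout. The log2 fold change of Ccnb1 was -0.02 with a 95% interval of -0.13 to 0.10 (edgeR adjusted p = 0.853), an interval that does not reach the -0.50 of Ccnb2. Cdk1, the kinase itself, had log2 -0.03 (-0.17 to 0.10) and Cks2, a small subunit of CDK complexes, -0.06 (-0.20 to 0.08). The phosphatase gene Cdc25c, which encodes an activator of CDK1, had the lowest CPM of the set, 18.9, 18.0 and 18.8 with PBS and 22.8, 16.3 and 15.8 with IL-3 supernatant. IL-3 supernatant replicate 1 was the highest of the 6 libraries for Cdc25c and the other 2 IL-3 libraries the lowest.

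Of the 5 mitotic and checkpoint kinases outside the passenger complex, 3 were lower, Bub1b, Bub1 and Plk1. Bub1b (ENSMUSG00000040084, chr2:118598211-118641591, plus strand) encodes BUBR1, a part of the checkpoint complex that inhibits the anaphase-promoting complex. Its CPM were 191, 202.5 and 196 with PBS and 175, 164 and 163 with IL-3 supernatant, all 3 IL-3 libraries below all 3 PBS libraries. Bub1b fell by 0.23 on the log2 scale (SE 0.05, edgeR adjusted p = 0.0033). Bub1 (ENSMUSG00000027379, chr2:127801122-127831865, minus strand) encodes the kinase that brings checkpoint proteins to kinetochores. Bub1 CPM were 99.8, 91.9 and 104 with PBS and 76.7, 89.6 and 75.1 with IL-3 supernatant, and the gap between PBS replicate 2 and IL-3 replicate 2 was narrow. The fall was 0.29 on the log2 scale (SE 0.07, edgeR adjusted p = 0.0059). Plk1, the Polo-like kinase of mitotic entry and spindle assembly, fell from 157 ± 6.33 to 136 ± 6.58 CPM (SD, n = 3), that is by 0.21 in log2 units (edgeR adjusted p = 0.0096). The Plk1 call was lost without PBS supernatant replicate 2 (log2 -0.17, adjusted p = 0.078) and without IL-3 supernatant replicate 2 (-0.17, 0.059).

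Aurka (ENSMUSG00000027496, chr2:172356190-172370535, minus strand), which encodes the Aurora kinase of the spindle poles, had the most positive log2 fold change of the set and did not pass. Its CPM were 78.6, 93.8 and 86.2 with PBS and 96.1, 92.7 and 101 with IL-3 supernatant. PBS replicate 1 was low, and PBS replicate 2 lay inside the range of the IL-3 libraries. The log2 fold change of Aurka was 0.17 (SE 0.07, edgeR adjusted p = 0.078). Leaving out PBS supernatant replicate 2 gave 0.24 with adjusted p = 0.022. Ttk, which encodes the checkpoint kinase MPS1, had log2 -0.14 (95% interval -0.32 to 0.04) and did not pass.

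All 4 genes of the chromosomal passenger complex were lower, the complex that corrects faulty attachments of kinetochores and later takes part in cytokinesis. Incenp (ENSMUSG00000024660, chr19:9872296-9899551, minus strand) encodes its scaffold. Incenp CPM were 234, 235 and 242 with PBS and 173, 179 and 176 with IL-3 supernatant. The libraries within each supernatant were close to each other, and the groups stood apart. Incenp fell from 237 ± 4.15 to 176 ± 2.81 CPM (SD, n = 3), that is by 0.43 in log2 units (SE 0.05, edgeR adjusted p = 5.0e-06). Aurkb (ENSMUSG00000020897, chr11:69045647-69051664, plus strand) encodes the kinase of the complex. Aurkb CPM were 127, 132 and 143 with PBS and 111, 102.5 and 109 with IL-3 supernatant, with no overlap. It fell by 0.32 on the log2 scale (SE 0.06, edgeR adjusted p = 0.0007). Birc5, which encodes survivin, fell by 0.32 (edgeR adjusted p = 0.0009), and Cdca8, which encodes borealin, by 0.16 (edgeR adjusted p = 0.047). Survivin and borealin bring the complex to the centromere. The Cdca8 call was near the threshold: leaving out any library but PBS supernatant replicate 1 ended it, at log2 -0.19 to -0.12 and adjusted p of 0.061 to 0.208.

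The 2 partners of the anaphase-promoting complex in the set did not pass. Cdc20 (ENSMUSG00000006398, chr4:118432901-118437352, minus strand) encodes its activator in mitosis and the target of the checkpoint. Cdc20 CPM were 175, 193 and 204 with PBS and 190.3, 178 and 187 with IL-3 supernatant, the IL-3 libraries lying within the range of PBS. The log2 fold change was -0.04 (SE 0.06, 95% interval -0.17 to 0.08, edgeR adjusted p = 0.639). Ube2c (ENSMUSG00000001403, chr2:164769898-164778822, plus strand) encodes the ubiquitin-conjugating enzyme that works with the complex. Its CPM were 158, 183 and 181 with PBS and 164, 151 and 158 with IL-3 supernatant, PBS replicate 1 being low and inside the IL-3 range. The log2 fold change of Ube2c was -0.14 (SE 0.06, edgeR adjusted p = 0.108). Leaving out PBS supernatant replicate 1 gave -0.21 with adjusted p = 0.0051. Each of these genes overlaps another on the opposite strand, Cdc20 with Elovl1 and Ube2c with Tnnc2.

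Of 6 centromere and kinetochore genes, Cenpa and Cenpf were lower and 4 did not pass. Cenpa (ENSMUSG00000029177, chr5:30666777-30674830, plus strand) encodes the histone H3 variant that marks the centromere. Its CPM were 203, 201 and 201 with PBS and 149, 149 and 147 with IL-3 supernatant. Within each group the libraries were nearly equal, and the groups were far apart for that spread. Cenpa fell from 202 ± 0.979 to 149 ± 1.33 CPM (SD, n = 3), that is by 0.44 in log2 units (SE 0.05), with the smallest adjusted p of the set (edgeR, 3.7e-06). Cenpf (ENSMUSG00000026605, chr1:189640606-189688086, minus strand) encodes a large protein of the outer kinetochore. Cenpf CPM were 141.5, 138 and 144 with PBS and 115, 129.9 and 116 with IL-3 supernatant, IL-3 replicate 2 being nearest to PBS. It fell by 0.23 on the log2 scale (SE 0.06, edgeR adjusted p = 0.0073), and without IL-3 supernatant replicate 1 the values were -0.20 and 0.051.

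Cenpe (ENSMUSG00000045328, chr3:135212537-135273611, plus strand) encodes a kinesin of the kinetochore that moves chromosomes to the spindle equator, and its log2 fold change was positive. Its CPM were 213, 195 and 202 with PBS and 205.5, 215.5 and 216 with IL-3 supernatant, with overlap. For Cenpe the value was log2 0.06 (SE 0.05, edgeR adjusted p = 0.440). The subunits of the NDC80 complex, which grips the microtubule, had small negative values, -0.12 for Nuf2, -0.14 for Ndc80 and -0.08 for Spc25. In Nuf2 and Ndc80 all IL-3 libraries lay below all PBS libraries, although the test did not pass (edgeR adjusted p = 0.197 and 0.167).

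Of 9 kinesin motors, 5 were lower, Kif11, Kif15, Kif20a, Kif4 and Kif22, and the other 4 had negative values that did not pass. Kif11 (ENSMUSG00000012443, chr19:37376403-37421859, plus strand) encodes the motor that pushes the spindle poles apart. Its CPM were 281.5, 283 and 295 with PBS and 229.9, 234 and 230.4 with IL-3 supernatant, with a wide gap between the groups. Kif11 fell by 0.31 on the log2 scale (SE 0.05, edgeR adjusted p = 0.00014). Kif15 (ENSMUSG00000036768, chr9:122951046-123018733, plus strand) encodes a motor that shares the work of Kif11 in keeping the spindle bipolar. Kif15 CPM were 134, 128 and 132 with PBS and 100.2, 107 and 100.1 with IL-3 supernatant, with no overlap. It fell by 0.36 on the log2 scale (SE 0.06, edgeR adjusted p = 0.00013). Kif20a, a motor of the central spindle, fell by 0.24 (edgeR adjusted p = 0.0026) and overlaps Cdc23 on the other strand. Kif4, a chromosome-bound motor, fell by 0.31 (0.0011), and Kif22, which pushes chromosome arms, by 0.25 (0.0067). Without PBS supernatant replicate 2 the Kif22 call was lost (log2 -0.21, adjusted p = 0.052).

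The kinesins that did not pass were Kif20b (-0.13), Kif23 (-0.11), Kif18b (-0.07) and Kif2c (-0.07). Kif23, the motor of centralspindlin, had 83.5, 83.8 and 83.4 CPM with PBS and 76.5, 76.9 and 78.2 with IL-3 supernatant, groups that did not overlap, and edgeR adjusted p = 0.139. Kif20b was the most scattered kinesin, with 108, 83.3 and 92.7 CPM with PBS and 78.0, 97.7 and 83.4 with IL-3 supernatant. Its highest library was PBS replicate 1, and the rest were mixed.

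The 5 spindle assembly factors split, with Nusap1 lower, Hmmr higher and 3 that did not pass. Nusap1 (ENSMUSG00000027306, chr2:119618298-119651244, plus strand) encodes a protein that bundles and stabilizes microtubules near chromosomes. Nusap1 CPM were 118, 123.5 and 121 with PBS and 99.2, 97.2 and 97.1 with IL-3 supernatant, 3 low against 3 high libraries. It fell by 0.30 on the log2 scale (SE 0.06, edgeR adjusted p = 0.00044). Hmmr (ENSMUSG00000020330, chr11:40701395-40733422, minus strand) encodes a receptor for hyaluronan that also acts at spindle poles. Hmmr CPM were 141, 141 and 140.4 with PBS and 154, 161 and 155 with IL-3 supernatant. The PBS libraries were almost identical, and every IL-3 library was higher. Hmmr rose by 0.16 on the log2 scale (SE 0.05, edgeR adjusted p = 0.031). The Hmmr call was lost without any library but PBS supernatant replicate 1 (log2 0.15 to 0.17, adjusted p of 0.055 to 0.094) with the replicate number as a block (0.16, 0.077), with GC and length trends removed (0.14, 0.085) and on log2 TPM (0.15 to 0.18, limma adjusted p of 0.059 to 0.145). Tpx2, which activates Aurora A on the spindle, had log2 -0.13 and edgeR adjusted p = 0.071, and leaving out PBS supernatant replicate 1 made it a call (-0.14, 0.046). Tacc3, which stabilizes spindle microtubules, had log2 -0.13 (0.109) and was likewise called without that library (-0.17, 0.026). Dlgap5, a spindle protein needed for chromosome alignment, had -0.08 (0.334).

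Of 3 genes of the spindle midzone and cytokinesis, Prc1 was lower. Prc1 (ENSMUSG00000038943, chr7:80294450-80316259, plus strand) encodes the protein that cross-links antiparallel microtubules between the separating chromosomes. Prc1 CPM were 136, 149 and 139 with PBS and 121, 117 and 126 with IL-3 supernatant, without overlap. It fell by 0.22 on the log2 scale (SE 0.06, edgeR adjusted p = 0.0079), and the values were -0.17 and 0.078 when PBS supernatant replicate 2 was left out. With limma on log2 TPM the Prc1 value was -0.14 with 5 libraries (adjusted p = 0.180) and -0.16 with 6 (0.077). Anln (ENSMUSG00000036777, chr9:22332012-22389188, minus strand) encodes anillin, a scaffold of the contractile ring. Its CPM were 44.8, 45.1 and 38.8 with PBS and 38.7, 41.7 and 38.4 with IL-3 supernatant, with overlap through PBS replicate 3. For Anln the value was log2 -0.11 (SE 0.08, edgeR adjusted p = 0.339). Ect2, which encodes the activator of RhoA at the division plane, had 90.0, 76.1 and 74.9 CPM with PBS and 72.8, 89.6 and 77.3 with IL-3 supernatant, 1 high library in each group, and log2 -0.01 (95% interval -0.20 to 0.18).

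The 2 genes of mitotic chromosome structure were the most abundant in CPM. Mki67 (ENSMUSG00000031004, chr7:135689784-135716361, minus strand) encodes Ki-67, which coats mitotic chromosomes and is used as a marker of dividing cells. Its CPM were 1303, 1329.9 and 1349.6 with PBS and 1063, 1008 and 1049.5 with IL-3 supernatant. The lowest PBS library lay well above the highest IL-3 library, and Mki67 had log2 -0.35 (SE 0.05, edgeR adjusted p = 2.2e-05). Top2a (ENSMUSG00000020914, chr11:98992943-99024189, minus strand) encodes the topoisomerase that untangles sister chromatids. Top2a CPM were 996, 1029.5 and 1048 with PBS and 918, 956 and 937 with IL-3 supernatant, which did not overlap. The log2 fold change of Top2a was -0.13 (SE 0.05) and missed the threshold (edgeR adjusted p = 0.053). It passed without PBS supernatant replicate 1 (-0.15, 0.013), with DESeq2 (-0.12, 0.032) and with limma-voom (-0.13, 0.038).

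Within 4 pairs of related genes, the ratio of the 2 genes is given for each supernatant as a description. The pairs were chosen after the fold changes of their genes were seen, so the ratios restate those fold changes and carry no test. The log2 ratio of Ccnb2 over Ccnb1 was -1.39 ± 0.04 with PBS and -1.88 ± 0.04 with IL-3 supernatant (SD, n = 3 each), a difference of -0.49 with no overlap. Aurkb over Aurka moved from 0.64 ± 0.13 to 0.15 ± 0.05, also by -0.49 and with no overlap. The ratio of Cenpf over Cenpe differed by -0.30, from -0.53 ± 0.06 to -0.82 ± 0.08, again with no overlap. Bub1 over Bub1b, the pair in which both genes were lower, differed by -0.06, and the libraries overlapped.

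**Figure D3:**
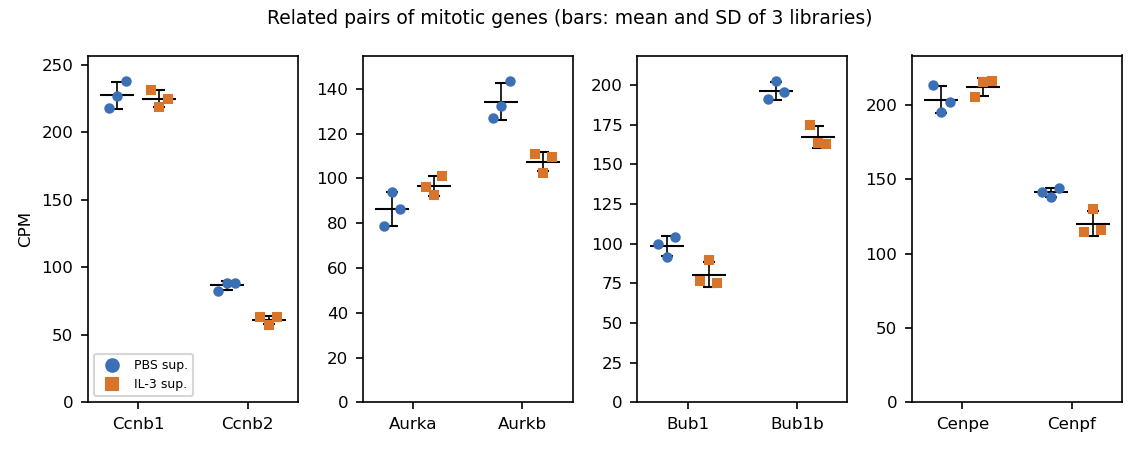
CPM of 4 pairs of related genes in each library (points), with the mean and SD of the 3 libraries of a group (bars); each axis starts at 0. Ccnb2, Aurkb, Bub1, Bub1b and Cenpf have IL-3 libraries (orange squares) below all PBS libraries (blue circles), while those of Ccnb1, Aurka and Cenpe overlap with PBS.

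Other genes of the mitotic machinery, in 5 lists that exclude the 42, also had more lower than higher genes. Of 131 tested 34 (26.0%) were lower and 4 (3.05%) higher, with a median log2 fold change of -0.08, beside the 16.1% and 14.8% over all genes. These lists too were chosen with earlier results known, and the share of lower genes in this pool and in the 42 was not compared by a test. Their summed CPM were 11679 ± 148 with IL-3 and 12467 ± 98.0 with PBS supernatant (SD, n = 3 each), a difference of -6.32%. The kinases, phosphatases and CDK1 regulators had 8 of 20 (40%) lower and none higher (median -0.15), with Nek2, a centrosome kinase (log2 -0.38), Ccnf, the cyclin of a ubiquitin ligase (-0.31), and Wee1, the kinase that inhibits CDK1 (-0.56), among them. Of 37 further spindle, centrosome and cytokinesis genes (median -0.17) 13 (35.1%) were lower and 2 were higher. Numa1 of the spindle poles (-0.42), Depdc1b (-0.78) and Racgap1 of centralspindlin (-0.29) had the smallest p among the lower genes. The higher genes were Psrc1 (0.59), a microtubule-binding protein, and the phosphatase Cdc14b (0.52). Cdc14b overlaps Aaed1 on the same strand and 1810034E14Rik on the other.

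In the remaining lists of other mitotic genes the medians lay closer to 0. Of 31 further kinetochore and centromere genes 4 (12.9%) were lower and 1 higher (median -0.06), a share of lower genes below the 16.1% over all genes tested and the 19.5% over genes in the expression range of the 42. Hjurp, the chaperone that loads CENP-A, fell from 301 ± 8.59 to 239 ± 3.04 CPM (SD, n = 3), that is by 0.33 in log2 units (edgeR adjusted p = 6.9e-05). Also lower were Pmf1 (-0.55) and Cenpp (-1.03), the latter overlapping Aspn, Ecm2, Ippk, Ogn and Omd on the other strand, and Zwint (0.20) was higher. Of 20 checkpoint and anaphase-promoting complex genes 5 (25.0%) were lower (median -0.02), with Mad2l1, the checkpoint protein MAD2 (-0.25), and the subunit genes Anapc5 (-0.20) and Anapc13 (-0.50), and none was higher. Of 23 condensin and cohesin genes 4 (17.4%) were lower (median -0.07), a share between those 2, with Ncaph (-0.24) and Ncaph2 (-0.27) of condensin and Smc1a (-0.15) of cohesin, and Wapl, which releases cohesin, was higher (0.22). Calls lost without 1 library were those of Zwint (without PBS 3, 0.18), Anapc5 (PBS 2, -0.14), Anapc13 (PBS 3, -0.47, and IL-3 1, -0.38), Smc1a (each but PBS 1, -0.16 to -0.13) and Wapl (each but PBS 1 and IL-3 3, 0.17 to 0.23). On log2 TPM of 5 libraries Mad2l1 (-0.23), Anapc5 (-0.18), Smc1a (-0.15) and Wapl (0.24) also lost their calls, and Smc1a did so with the replicate block (-0.15, adjusted p = 0.08) and after removal of trends with GC and length (-0.11, 0.066).

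Tubulins, the subunits of the microtubules themselves, changed in both directions, where 16.1% of all genes tested were lower and 14.8% higher. Of 10 tested 4 were lower, among them Tubb4b (-0.33), Tuba4a (-0.23) and Tuba1b (-0.20), and 3 higher, Tubb6 (0.50), Tuba1a (0.21) and Tubb3 (1.75, from 0.354 ± 0.0598 to 1.21 ± 0.367 CPM, SD, n = 3). Tubulin genes have near-identical copies, so reads could be split among them, and Tubb3 was barely detected and overlaps Gm20388. Without PBS 2 or IL-3 2 the Tuba1b call was lost (-0.16 each), and without PBS 3 or IL-3 1 that of Tubb3 (1.62 and 1.54). On log2 TPM of 5 libraries both calls were lost, with Tuba1b at -0.17 and Tubb3 at 0.73 (pseudocount 1, limma adjusted p = 0.086) or 1.56 (pseudocount 0.1, 0.08). The larger pseudocount understates the change of a gene this low.

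Among 23 regulators of mitotic transcription, 10 (43.5%) were lower and 1 (4.35%) higher, with a median of -0.02. Over all genes tested the shares were 16.1% and 14.8%. Foxm1, which encodes the activator of G2 and M genes, fell from 110.3 ± 3.23 to 93.8 ± 4.66 CPM (SD, n = 3), that is by 0.23 in log2 units (edgeR adjusted p = 0.006). The Foxm1 call was lost on log2 TPM, at -0.13 with 5 libraries (limma adjusted p = 0.508) and -0.10 with 6 (0.540). Mybl2, which encodes B-MYB, the partner of MuvB in activation, had 112 ± 5.42 and 124 ± 8.37 CPM with PBS and IL-3 supernatant, log2 0.14 (edgeR adjusted p = 0.104), and without IL-3 replicate 2 it was called higher (0.20, 0.037). Of the E2F factors, E2f2, an activator, fell by 0.52 on the log2 scale, and E2f7 and E2f8, repressors of E2F targets, by 0.56 and 0.43. Also lower were E2f1 (-0.42) and E2f6 (-0.47), while E2f3 (-0.01) and E2f5 (0.29) did not pass. The pocket protein gene Rb1 fell by 0.29 (edgeR adjusted p = 0.02), a call lost without PBS 1 (-0.21), IL-3 1 (-0.27) or IL-3 3 (-0.25). The Rb1 call was also lost after removal of trends with GC and length (-0.22, adjusted p = 0.06; -0.21 and 0.064 with the replicate block) and on log2 TPM of 5 (-0.36, 0.058) or 6 libraries (-0.27, 0.119). Rbl1, another pocket protein gene, fell by 0.32 on the log2 scale (edgeR adjusted p = 0.0011) and overlaps Gm14277 on the other strand. Rbl2 (0.01) and E2f4 (0.02), which encode p130 and its E2F partner in repression, did not pass. Nfyb, a subunit of the CCAAT-binding factor, was the gene called higher (0.29), but not on log2 TPM of 5 (0.18, limma adjusted p = 0.220) or 6 libraries (0.27, 0.083). The genes of its other subunits, Nfya (-0.23, edgeR adjusted p = 0.012) and Nfyc (-0.24, 0.018), were lower.

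DNA replication and nucleotide synthesis genes, which act in the S phase before mitosis, were lower in 13 of 54 (24.1%) and higher in 3 (5.56%), with a median of -0.10. Over all genes tested 16.1% were lower and 14.8% higher, and over genes in the expression range of the 42 the shares were 19.5% and 15.0%. Their summed CPM were 8479 ± 87.7 with IL-3 and 9249 ± 358 with PBS supernatant (SD, n = 3 each), a difference of -8.33%. Uhrf1 (-0.27), Rpa1 (-0.26) and Mcm7 (-0.25) had the smallest p among the lower genes. The origin recognition genes Orc1 (0.59) and Orc2 (0.20) and the primase subunit Prim1 (0.19) were higher. Calls of Orc2 (without PBS 2, 0.20, or IL-3 2, 0.15) and Prim1 (without PBS 3, 0.19, or IL-3 3, 0.16) were lost without 1 library, and both on log2 TPM of 5 libraries (0.24 and 0.21). Without a filter on TPM, the calls of Nek2, Ccnf, Wee1, Numa1, Depdc1b, Racgap1, Psrc1, Cdc14b, Pmf1, Cenpp, Anapc13, Ncaph2, Tuba4a, Tubb6, Tuba1a, E2f8 and Uhrf1 were lost as well.

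**Figure D4:**
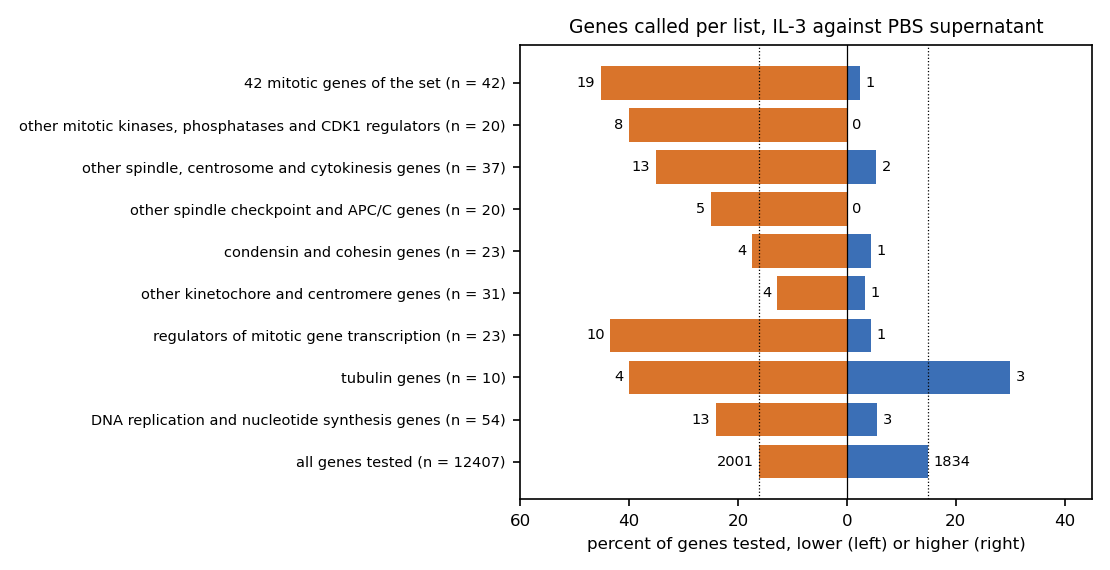
Percent of tested genes that were lower (orange, to the left of 0) or higher (blue, to the right) with IL-3 supernatant in the 42 genes, in 8 other lists and in all genes tested; numbers on the bars count genes and dotted lines mark the shares over all genes. The orange bar is longest for the 42 genes, 19 genes, and tubulins have the longest blue bar, 3 genes.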

How the data were processed

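The members of the set and all gene lists were chosen with earlier results of these data known. Expected counts per gene for 6 libraries, and TPM per gene (5 libraries) or per isoform (PBS supernatant replicate 2), were deposited by the authors. Per the submitters' processing notes, RSEM 1.2.12, Bowtie2 2.2.0, edgeR 3.20.9 and GRCm38 were used. What strand setting and annotation the authors chose is not given in the sources used here. The TruSeq kit served for library preparation after poly(A) capture, per the labels' protocols. Expected counts divide shared reads among genes, and 11 of the 42 genes held fractions; counts were rounded. Of 46517 identifiers, 512 had no symbol (at most 0.202% of counts). Testing used R 4.3.3 with edgeR 4.0.16, namely filterByExpr, TMM scaling, robust quasi-likelihood with group as the model term, and Benjamini-Hochberg adjustment at 0.05. The common biological coefficient of variation was 0.0939. SE and 95% intervals come from that fit, and CPM use TMM-scaled totals. Coordinates are from GENCODE's annotation of GRCm38. Counts were simulated for these 12407 genes, with 50 genes drawn at random over all expression levels changed at each fold. The test recovered 38% of genes changed 1.25-fold, 72% at 1.5-fold, 80% at 2-fold and 92% at 4-fold, and 9.62% of its calls were false. Far fewer genes changed there than were called in the data, so these shares may differ for the 42 genes. No replicate pair agreed within sampling noise (chi-square per degree of freedom 13.6 to 64.9). This sum over genes gives abundant genes such as CT010467.1 the most weight. Its highest values, 61.1 and 64.9, were of the pairs with PBS supernatant replicate 2. Fuller values were given for the 2 genes of each role with the smallest p, the extremes, and genes of positive sign. Of each other list, up to 3 called genes per direction by smallest p were named, plus 5 regulators. Ccnb1, Cdc25c, Kif20b, Kif23 and Ect2 were given library values after they were seen. E2f1, E2f3, E2f5, E2f6, Rbl1, Nfya and Nfyc were named after their values were seen, as relatives of named regulators. Their calls under the alternatives are not given here. Alternatives were other scalings and filters, DESeq2 1.42.0, limma 3.58.1 (voom, and log2 TPM with pseudocounts 1 and 0.1), a replicate block, GC and length trends removed, each library left out, and a threshold of 0.01. Tables and plots used Python 3.11.15, pandas 2.3.3, scipy 1.17.1 and matplotlib 3.10.9.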

Additional observations from a re-analysis of the deposited data

How the results depend on the processing

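Over 20 alternatives 10 to 23 of the 42 genes were lower (15 to 23 leaving out each library), with 10 on log2 TPM of 5 libraries without a filter, where more genes were tested. Of the 20 genes called, 8 kept their call in all alternatives (Ccnb2, Cenpa, Incenp, Kif11, Kif15, Kif20a, Mki67 and Nusap1), while Cdca8 lost it in 15 and Hmmr in 13. None of the 20 changed sign. The number higher was 2 with library size only and 0 with the replicate block, with GC and length trends removed, with both, with each of the 4 TPM settings and at adjusted p below 0.01, and 0 to 1 leaving out each library (0 without PBS 3 or any 1 of the IL-3 libraries). The median log2 fold change was -0.12 with library size only and with TPM of 6 libraries, -0.18 with the other TPM settings, and -0.16 to -0.12 leaving out each library. Of the other mitotic genes 22 were lower with TPM at either pseudocount, 19 with TPM of 6 libraries, 5 with TPM and no filter, and 22 at adjusted p below 0.01 (24 to 37 leaving out each library). Higher among them were 1 with TPM and no filter, 2 at adjusted p below 0.01 and 2 to 4 leaving out each library (2 without PBS 3). The cause of these shifts was not tested. No scaling moved the median of all genes by over 0.1 on the log2 scale.

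The replicate numbers are not said to mark a shared mouse or day, and deviations of same-numbered libraries correlated at -0.148, 0.0517 and 0.255, so the numbers were not taken to pair them; not every library correlated best with its own number. With the replicate block 18 of the 42 genes were lower and 0 higher.

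Signs reversed only in genes that did not pass. Ccnb1 was 0.00 with library size only, 0.03 with TPM of 5 libraries (3 settings), 0.05 with TPM of 6, and ranged from -0.05 to 0.02 leaving out each library. Leaving out each library, Cdk1 ranged from -0.09 to 0.03 (above 0 without PBS 2 or IL-3 2), Cdc25c from -0.21 to 0.07 (IL-3 2 or 3), Cdc20 from -0.10 to 0.01 (PBS 3) and Kif2c from -0.14 to 0.01 (PBS 2). Ect2 was 0.01 with library size only, 0.00 with TPM of 6 libraries, and -0.09 to 0.08 leaving out each library. E2f4 was -0.04 with GC and length trends removed (also with the block), and -0.04 to 0.10 leaving out each library (below 0 without PBS 1 or IL-3 1). Rbl2 ranged from -0.03 to 0.06 in that way (below 0 without PBS 2 or IL-3 3). On simulated counts the smallest changes were often missed, so genes that did not pass are not shown to be unchanged.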

Other observations

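The TPM table of PBS supernatant replicate 2 lists isoforms, so it shows which transcripts of the mitotic genes that library held. The leading isoform made up at least 50% of the gene's TPM in 40 of the 42 genes and at least 90% in 25, and it was annotated as protein coding in 41. The exception was Cenpa, the gene of the centromeric histone. Its leading isoform, Cenpa-202, is annotated with the biotype of nonsense-mediated decay and had 102 TPM (40.5% of the gene), while the protein-coding Cenpa-205 had 70.8 TPM (28.1%). These are estimates of 1 library, and isoforms were not compared between supernatants.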
